A study of Mus musculus with 3 samples.

Results

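A set of 8 interferon-stimulated genes, *Ifi27l2a*, *Ifitm3*, *Isg15*, *Ifit1*, *Ifit3*, *Irf1*, *Irf7* and *Bst2*, were followed across the cell types of the mouse ascending aorta. They were taken by symbol, and each was found once among the 32285 genes of the deposited matrices, so that 8 of 32285 genes are described. Expression was measured by droplet single-cell RNA-seq in 3 libraries, each from pooled ascending aortas of male C57BL/6J mice at P45. The WT library came from 3 mice, the mgR library from 3 mice homozygous for the hypomorphic mgR allele of *Fbn1* (*Fbn1* mgR/mgR), and the mgR-LOS library from 4 such mutants that drank 0.6 g/L losartan from P16. *Fbn1* encodes fibrillin-1, mutant in Marfan syndrome, and losartan blocks the angiotensin II type I receptor. The allele is a germline hypomorph, so that every cell type of both mutant libraries carries it. All aortas were digested enzymatically and depleted of red blood cells, and the labels do not say whether the mgR mice drank vehicle.

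With 1 library per group, no test between groups could be made. Levels are CPM, the UMIs of a gene per 1000000 UMIs of all genes, summed over the barcodes of a cell type, and ratios carry 95% intervals. Those intervals cover counting error only, and the spread between mice cannot be measured here. They treat each UMI as independent, so that the spread between barcodes of a gate is not covered either. Of 7858, 10657 and 14663 deposited barcodes in WT, mgR and mgR-LOS, 5361, 8076 and 12721 passed the limits on genes and mitochondrial UMIs, with medians of 13636, 12410 and 8334.0 UMIs. Cell types were gated on marker panels that hold none of the 8 genes. The gates held 3586, 3031 and 7791 smooth muscle cells (SMCs), 1324, 2395 and 3097 fibroblasts, 88, 930 and 541 macrophages and 83, 133 and 116 endothelial cells (ECs). The 6 genes of each of these 4 panels were detected in all 3 libraries. Pairs of libraries shared 22 to 46 barcode sequences, at most 0.432% of the smaller library. *Fbn1* itself, the check of the genotypes, over all passed barcodes was at 361 CPM in WT, 150 in mgR and 117 in mgR-LOS.

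Interferons are secreted antiviral cytokines. Type I interferons (alpha and beta) signal through the receptor chains *Ifnar1* and *Ifnar2* and the kinases *Jak1* and *Tyk2* to factors that bind interferon-stimulated response elements. Interferon gamma, made mainly by T and natural killer (NK) cells, acts through gamma-activated sites. Of the 8 genes, *Irf1* and *Irf7* encode transcription factors of the pathway. *Isg15* encodes a ubiquitin-like modifier, and *Ifit1* and *Ifit3* encode related antiviral proteins. *Ifitm3* encodes a membrane protein that blocks virus entry, and *Bst2* (tetherin) a membrane protein that holds budding virus at the cell surface. *Ifi27l2a* encodes a small hydrophobic interferon-induced protein.

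The promoters are shown first because they group the 8 genes by sequence and not by their levels here. Promoter windows of RefSeq on GRCm38.p6, 250 bases before to 50 after the start site, were matched by symbol for 7 of the 8 genes. *Ifi27l2a* had no window, and *Irf1* had 2. Both strands were searched for GAAANNGAAA, the core to which interferon regulatory factors bind, and for TTCNNNGAA, the core of a gamma-activated site. The first was found in 5 of the 7 genes, against 3.99% of all 27025 genes with a window (3.44% of 32851 windows). The second was found in 3 of the 7 genes, against 9.55% of all genes (8.30% of windows). Matches are letters in a window and not sites shown to be bound. The genes were listed as interferon-stimulated, so that these shares are partly set by the choice. The 5 windows with the first motif and the *Irf1* window with the second are printed below, 5′ to 3′ on the strand of the gene, with the matches in capitals.
*Isg15* (chr4:156200855-156200916, minus strand, 3 overlapping matches): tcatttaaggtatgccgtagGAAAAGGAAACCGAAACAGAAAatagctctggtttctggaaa
*Bst2* (chr8:71537567-71537622, minus strand, 2 overlapping matches): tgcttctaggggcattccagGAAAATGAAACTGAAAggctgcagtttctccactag
*Ifit1* (chr19:34640765-34640833, plus strand, 2 matches, read on the other strand): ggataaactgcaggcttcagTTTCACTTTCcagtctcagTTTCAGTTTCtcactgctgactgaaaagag
*Ifit3* (chr19:34583353-34583436, plus strand, 2 matches, read on the other strand): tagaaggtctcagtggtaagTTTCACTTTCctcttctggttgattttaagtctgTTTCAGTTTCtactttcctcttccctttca
*Ifitm3* (chr7:141010716-141010742, minus strand, 2 matches): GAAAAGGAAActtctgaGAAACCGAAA
*Irf1* (chr11:53769904-53769952, plus strand, 1 match to the gamma-activated site): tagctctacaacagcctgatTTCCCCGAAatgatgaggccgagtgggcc

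The matches of *Isg15* lay 78 to 57 bases before the start site, those of *Bst2* 130 to 115, those of *Ifit1* 104 to 76 and those of *Ifit3* 156 to 113. The *Ifitm3* matches lay 2 to 28 bases past its start. *Ifit1* and *Ifit3* carried the same pair of cores in the same order, and the genes lie 52.1 kb apart on chromosome 19. *Ifitm3* and *Irf7* both lie on chromosome 7, 252 kb apart. *Ifitm3* and *Bst2* also had 1 match each to the gamma-activated site, which overlapped their other matches. *Irf1* had a gamma-activated site 90 to 82 bases before its start and no GAAANNGAAA in either window, and the *Irf7* window held neither motif.

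In WT aortas all 8 genes were lowest in SMCs among the 4 main gates (levels in the plot by gate). A UMI counts a molecule once whatever the length of the transcript, so that CPM were compared between genes without division by length. *Ifitm3*, the most abundant in ECs, was at 2711 CPM in ECs, 1390 in macrophages, 1267 in fibroblasts and 239 in SMCs. *Bst2* was at 477 CPM in ECs and 447 in macrophages, whose intervals overlapped, and at 189 in fibroblasts and 42.2 in SMCs. Both membrane proteins thus had ECs at or near the top of the order.

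*Ifi27l2a* had another order, with 1919 CPM in macrophages, 673 in fibroblasts, 518 in ECs and 22.5 in SMCs. None of its neighbors in that order overlapped. The effector genes *Isg15*, *Ifit1* and *Ifit3* were at far lower levels. *Isg15* was at 53.5 CPM in macrophages, 35.8 in fibroblasts, 17.4 in ECs and 2.0 in SMCs, and *Ifit1* was at 55.5 CPM in fibroblasts, 34.8 in ECs, 11.9 in macrophages and 1.08 in SMCs. *Ifit3* was highest in fibroblasts, at 66.2 CPM against 28.5 in macrophages, 26.9 in ECs and 3.00 in SMCs. The transcription factors differed as well: *Irf1* was at 159 CPM in fibroblasts, 141 in macrophages and 106 in ECs, which overlapped in their order, against 13.3 in SMCs. *Irf7* was at 44.0 CPM in macrophages, 20 in fibroblasts, 17.4 in ECs and 0.589 in SMCs.

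**Figure D1:**
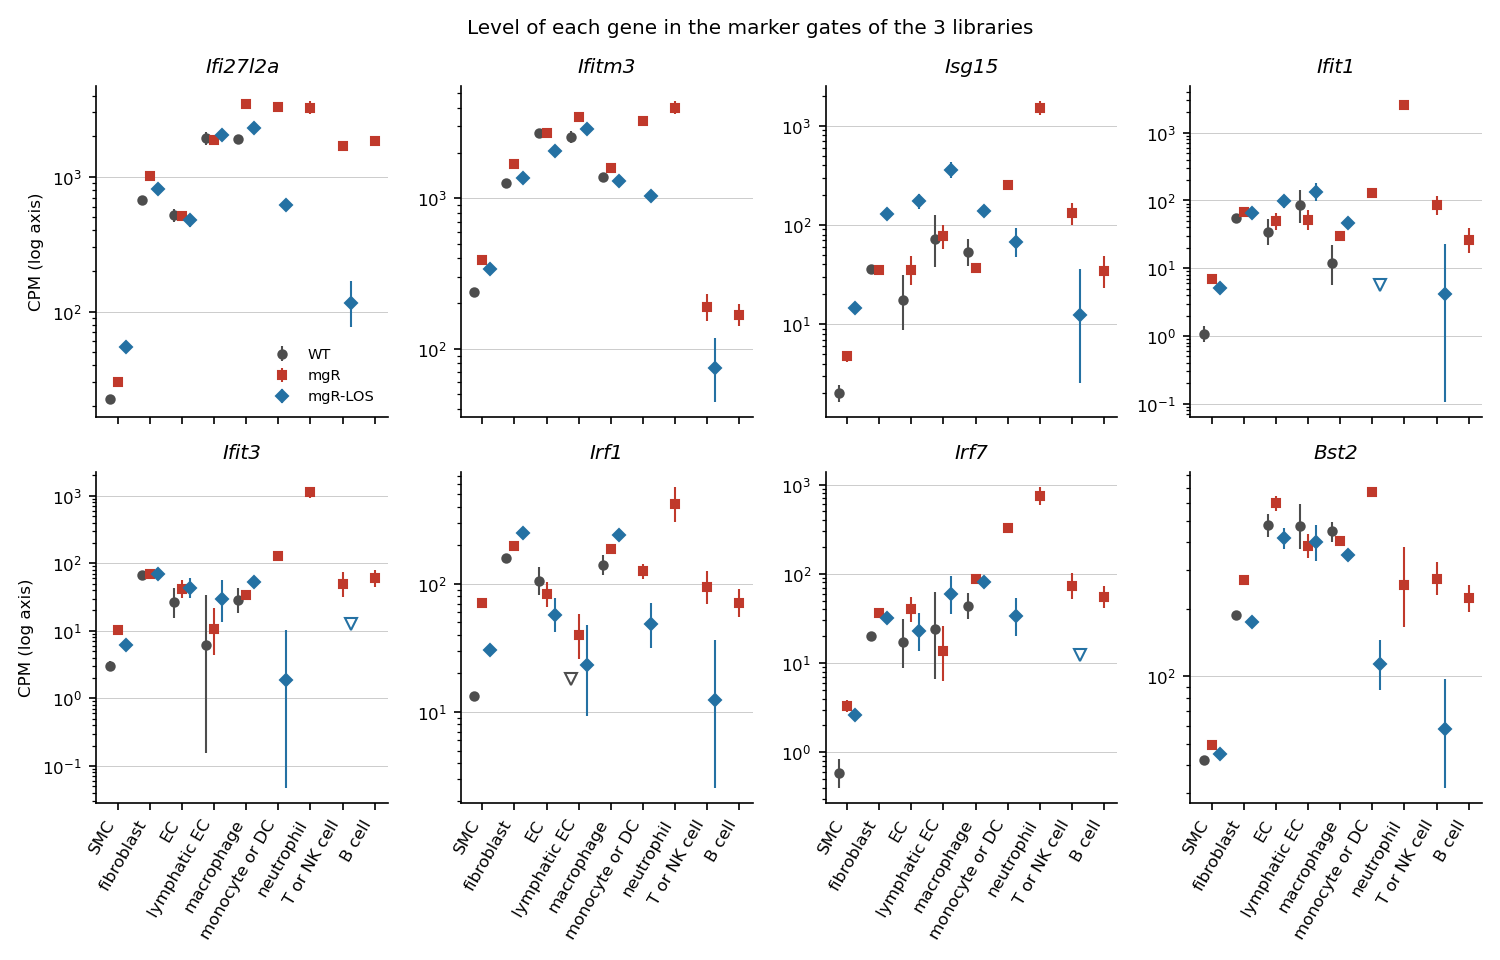
CPM of the 8 genes (log axis) by marker gate and library, with exact 95% Poisson intervals of counting error; an open triangle marks the level that a count of 0 allows, and gates under 20 barcodes are left out. SMCs sit lowest among the 4 main gates, as for *Ifi27l2a* in mgR at 30.1 CPM against 3485 in macrophages, whereas mgR monocytes or dendritic cells lie high, as for *Irf7* at 330 CPM.

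SMC barcodes thinned to 1000 UMIs carried a UMI of *Ifitm3* in 20.4% of WT, 28.1% of mgR and 28.0% of mgR-LOS barcodes (89.9, 95.3 and 85.9% unthinned). For *Ifi27l2a* the thinned shares were 2.07, 2.64 and 3.87%, against 62.5, 74.1 and 70.2% in macrophages, the gate where the gene was highest. SMC barcodes are the deepest of the main gates, with medians of 14388, 15298 and 8515.0 UMIs against 9074.0, 8352.0 and 6426.0 in macrophages. The macrophage shares lay far above those of SMCs, and the part of free RNA in either gate was not tested.

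The smaller gates extended the order. Lymphatic ECs (22, 72 and 38 barcodes) held 1936, 1881 and 2032 CPM of *Ifi27l2a* in WT, mgR and mgR-LOS, above the 518, 510 and 474 of the other ECs. Their *Ifitm3* was at 2560, 3465 and 2886 CPM. B cells and T or NK cells of mgR, with 125 and 102 barcodes, carried much *Ifi27l2a*, at 1852 and 1696 CPM. *Ifitm3* was low in the same cells, at 168 and 188 CPM, below its level in mgR SMCs (388 CPM). Mural cells of WT held no UMI of *Ifi27l2a* among 470317 UMIs, which allows up to 6.38 CPM, against 105 CPM (30 UMIs) in mgR-LOS.

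The mgR and WT libraries were compared to ask which of the genes differ in the aneurysmal wall. A gene was counted as higher or lower when its ratio was at least 1.5 or at most 0.667, at a mean of at least 10 CPM and with at least 20 UMIs over both libraries. No gene of the 8 was lower past this fold in mgR in any of the 4 main gates. In SMCs, 2 of the 4 genes at that level were higher, where 4.47% of 7342 genes were higher and 3.58% lower. In fibroblasts 2 of 8 were higher (background 5.96% of 8150 genes higher, 3.55% lower), in ECs 3 of 8 (15.0% of 7793 higher, 8.96% lower) and in macrophages 3 of 8 (11.0% of 7295 higher, 5.61% lower). The median ratio of the genes at the level was 1.48 in SMCs, 1.29 in fibroblasts, 1.34 in ECs and 1.25 in macrophages, against medians over all genes of 0.990, 1.00, 1.05 and 1.05.

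*Irf1*, a transcription factor of both interferon pathways, had the largest SMC ratio of the genes at the level. It was at 13.3 CPM in WT and 70.5 in mgR, a ratio of 5.31 (4.88-5.77), and only 20 of 7342 genes had a higher one. In mgR-LOS it was at 30.6 CPM, 0.434 (0.410-0.458) of mgR, and only 35 of 7389 genes had a lower ratio. The mgR SMCs thus stood above those of both other libraries. The *Irf1* of fibroblasts was at 159, 197 and 248 CPM and that of macrophages at 141, 186 and 240 CPM in the same order of libraries. Mural cells (35, 22 and 36 barcodes) were at 19.1, 201 and 164 CPM. Their mgR over WT ratio was 10.5 (5.10-24.3), from 9 WT UMIs, and their mgR-LOS over mgR ratio 0.817 (0.534-1.25). The latter ratio was 0.386 in monocytes or dendritic cells and 0.130 in T or NK cells, so that lower *Irf1* in mgR-LOS was not particular to SMCs. After thinning to 1000 UMIs, 1.09% of WT, 6.17% of mgR and 2.67% of mgR-LOS SMC barcodes carried an *Irf1* UMI.

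*Irf1* is also induced early by stress, so it was read beside 15 genes known to respond to cell handling. They are called immediate early genes here and include *Fos*, *Jun*, *Egr1* and the heat-shock genes *Hspa1a* and *Hspa1b*. In SMCs their mgR over WT ratios ran from 0.410 for *Hspa1b* to 1.92 for *Ier3*, with a median of 0.881. Their mgR-LOS over mgR ratios ran from 0.496, again *Ier3*, to 2.40 for *Hspa1a*, with a median of 0.972. None of them moved as far as *Irf1* in the first comparison. *Hspa1a* was at 459, 190 and 457 CPM in WT, mgR and mgR-LOS, lowest in the library where *Irf1* was highest. Within each library, *Irf1* was higher where the sum of the 15 genes was higher. In SMC barcodes below and above the median of that sum, *Irf1* was at 6.65 and 19.4 CPM in WT, 16.8 and 124 in mgR, and 14.4 and 46.0 in mgR-LOS. The mgR level exceeded the WT level on both sides of the median, while the difference between mgR and mgR-LOS was small on the lower side. The part of cell handling in the *Irf1* difference was not tested.

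**Figure D2:**
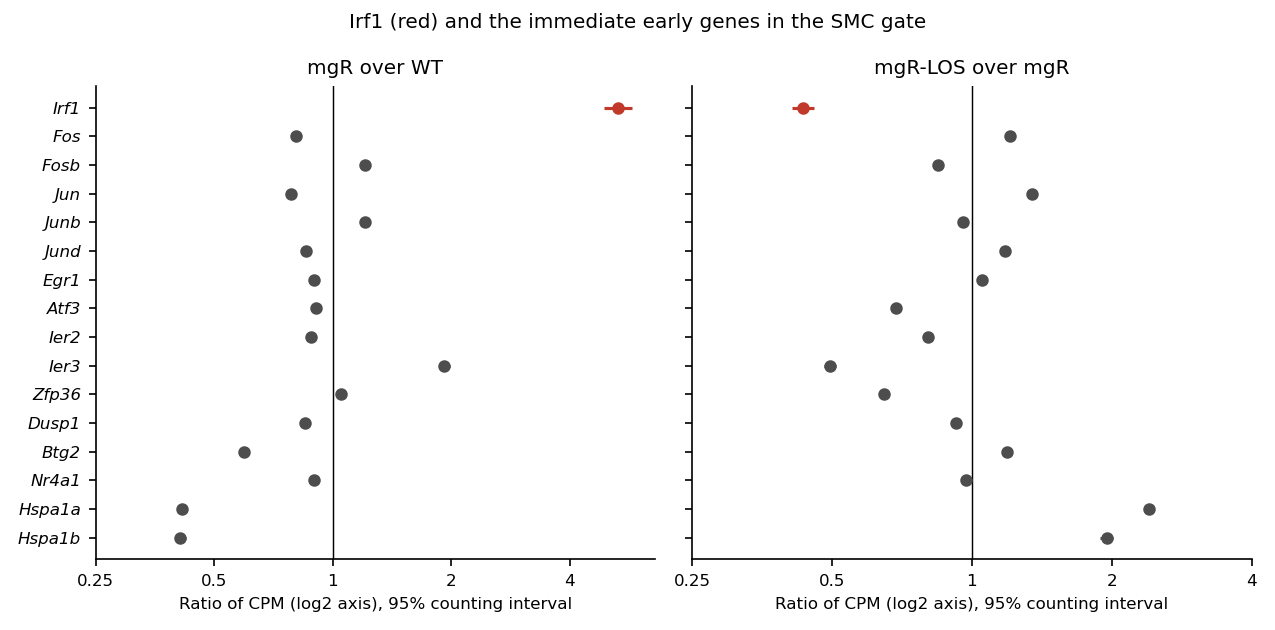
Ratios of CPM (log2 axis) of *Irf1*, in red, and the 15 immediate early genes in SMCs for both comparisons, with 95% intervals of counting error. *Irf1* lies at 5.31 in mgR over WT, where the 15 genes end at 1.92, and at 0.434 in mgR-LOS over mgR, where they begin at 0.496.

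*Ifitm3* in SMCs was at 239 CPM in WT, 388 in mgR and 340 in mgR-LOS, with a mgR over WT ratio of 1.62 (1.59-1.66). The means of *Isg15*, *Ifit1*, *Ifit3* and *Irf7* over WT and mgR SMCs stayed under the level minimum, and their ratios rest on 30 to 153 WT UMIs. *Ifit1* was at 1.08 CPM in WT and 6.93 in mgR, a ratio of 6.41 (4.81-8.70). *Irf7* had a ratio of 5.62 (3.79-8.62), *Ifit3* of 3.44 (2.86-4.15) and *Isg15* of 2.35 (1.85-3.01). All 8 intervals in SMCs lay above 1, with *Bst2* the closest at 1.16 (1.09-1.23). Many UMIs of the scarce genes lay in few barcodes, as given below, which these intervals do not cover.

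Macrophage markers moved with these SMC ratios. The summed panel of 6 macrophage genes was at 5.56, 16.3 and 22.7 CPM in the WT, mgR and mgR-LOS SMC gates, and all 6 were higher in mgR than in WT, although the panel is at 15427 CPM or more in macrophages. The fibroblast panel was at 112, 130 and 195 CPM. In SMC barcodes without a single UMI of the fibroblast, macrophage, monocyte and both endothelial panels (1442, 953 and 2191 barcodes), *Irf1* was at 11.0, 54.9 and 22.2 CPM and *Ifitm3* at 224, 348 and 329. *Ifit1* was at 0.355 and 3.68 CPM in WT and mgR there. The mgR over WT ratios in those barcodes ran from 1.15 for *Bst2* to 10.4 (4.70-27.1) for *Ifit1*, with all 8 intervals above 1. The part of RNA from other cells in the SMC ratios was not tested. These barcodes were chosen after the data had been seen.

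In fibroblasts, *Ifi27l2a* was at 673 CPM in WT and 1018 in mgR, a ratio of 1.51 (1.48-1.55) that lies at the fold itself. *Irf7* was at 20 and 36.5 CPM, a ratio of 1.83 (1.61-2.08). *Bst2* fell short of the fold at 1.43 (1.37-1.5), as did *Ifit1* at 1.20 (1.11-1.30). *Isg15* and *Ifit3* had ratios of 0.982 (0.884-1.09) and 1.04 (0.961-1.12), whose intervals held 1. The fibroblast panel that defined the gate was at 19562 CPM in WT, 13620 in mgR and 19109 in mgR-LOS, and the monocyte or dendritic panel at 41.3, 124 and 49.9 CPM. Their part in the fibroblast ratios was not tested.

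Macrophages of mgR held more *Ifi27l2a*, at 1919 CPM in WT and 3485 in mgR, a ratio of 1.82 (1.73-1.91). *Irf7* was at 44.0 and 88.4 CPM (ratio 2.01, 1.45-2.88) and *Ifit1* at 11.9 and 29.8 CPM (ratio 2.51, 1.34-5.30), the latter from 10 WT UMIs, of which 3 lay in 1 barcode. *Isg15* pointed the other way, at 53.5 and 37.2 CPM, a ratio of 0.695 (0.507-0.973). The 88 WT macrophages set the precision here. Among macrophages with at least 2 markers of resident cells, *Ifi27l2a* was at 1973 CPM in WT and 4095 in mgR, and among the rest at 1763 and 2104. The first class held 66 barcodes in WT and 619 in mgR and the second only 22 and 311, and the ratios were 2.08 (1.96-2.20) and 1.19 (1.07-1.33). *Ifitm3* had a ratio of 1.02 (0.962-1.09) in resident-type macrophages and 3.20 (2.55-4.08) in the other ones. The monocyte or dendritic panel in the macrophage gate was at 120, 436 and 206 CPM in the 3 libraries, and its part in these ratios was not tested.

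In ECs, *Isg15* was at 17.4 CPM in WT and 35.2 in mgR, *Irf7* at 17.4 and 40.1 and *Ifit3* at 26.9 and 42.1. These are 11, 11 and 17 WT UMIs, and the interval of *Ifit3* (0.873-2.92) holds 1, while those of *Isg15* (1.01-4.40) and *Irf7* (1.16-4.97) only just lie above it. Thinned to 2000 UMIs, the *Isg15* ratio in ECs was 0.631, the other side of 1. *Ifitm3* and *Ifi27l2a*, with more UMIs in the same cells, had ratios of 1.00 (0.943-1.07) and 0.984 (0.855-1.13). The *Ifi27l2a* ratio ran from 0.816 to 1.26 over the planned settings of processing.

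**Figure D3:**
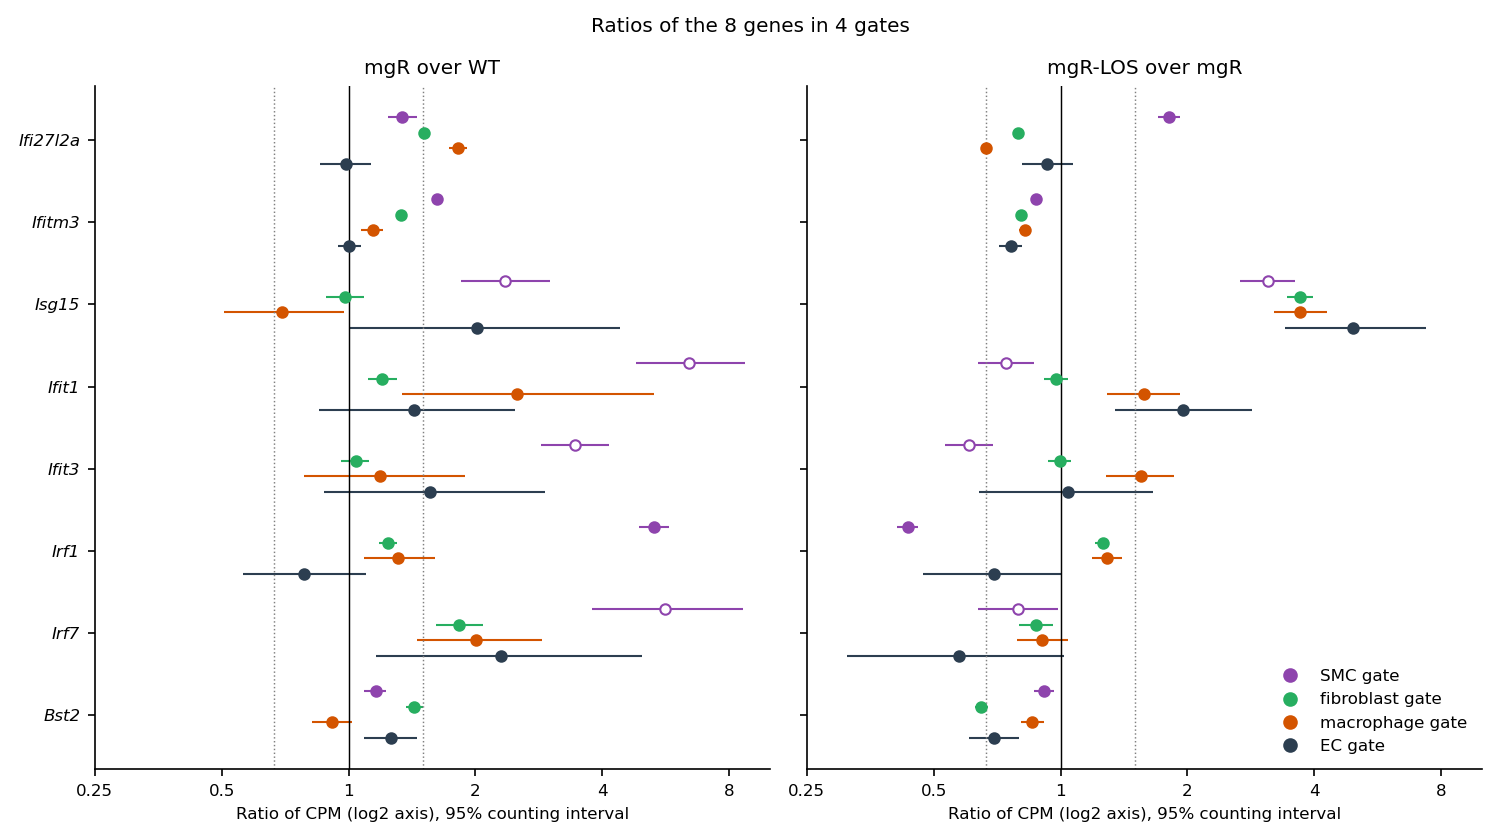
Ratios of CPM of the 8 genes (log2 axis) in the 4 main gates, with 95% intervals of counting error; open points are under the level minimum, dotted lines mark 0.667 and 1.5, and both comparisons use the mgR library. *Irf1* in SMCs lies at 5.31 and 0.434, and *Isg15* in mgR-LOS over mgR lies at 3.10 to 4.95 in the 4 gates.

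The mgR-LOS and mgR libraries were compared to ask what losartan changes in the mutant wall. The mgR library serves both comparisons, so that a level that is high or low in it alone turns the ratios in opposite directions. In SMCs, 1 gene of 4 was higher and 1 lower (background 3.74% of 7389 genes higher, 3.18% lower). In fibroblasts 1 of 8 was higher and 1 lower (3.05% of 8134 higher, 3.22% lower), in ECs 2 were higher and 1 lower (12.0% of 8073 higher, 12.3% lower), and in macrophages 3 were higher and 1 lower (4.60% of 7473 higher, 2.76% lower). The median ratios were 0.896, 0.924, 0.846 and 1.10, against 1.02, 1.000, 0.989 and 1.01 over all genes. The genes thus differed in direction within a cell type.

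*Isg15*, the ubiquitin-like modifier, was higher in mgR-LOS than in mgR in fibroblasts, macrophages, ECs, lymphatic ECs and SMCs. It was lower in monocytes or dendritic cells (0.264, 0.183-0.370) and in T or NK cells (0.0948, 0.0191-0.289). In mural and Schwann cells it was under the level minimum, with intervals that held 1. In fibroblasts it was at 35.8 CPM in WT, 35.2 in mgR and 130 in mgR-LOS, a ratio to mgR of 3.70 (3.45-3.97), and only 2 of 8134 genes had a higher one. In macrophages it was at 53.5, 37.2 and 138 CPM, also a ratio of 3.70, and only 1 of 7473 genes had a higher one. The EC levels were 17.4, 35.2 and 174 CPM with a ratio of 4.95 (3.41-7.36), and those of lymphatic ECs 72.8, 76.7 and 359 CPM with a ratio of 4.69 (3.32-6.69). SMCs were at 2.0, 4.72 and 14.6 CPM, a ratio of 3.10 (2.67-3.60) just under the level minimum. Of 6042 genes at the level in fibroblasts, macrophages and ECs, 19 were higher at least 1.5-fold in all 3 and only 3 at least 2-fold, which were *Hist1h4d*, *Isg15* and *Zbtb16*, a zinc-finger transcription factor. Those genes were named after their values had been seen. *Malat1*, a nuclear RNA often read as a sign of cell quality, moved in the same comparison. It was at 24607 CPM in mgR and 39089 in mgR-LOS in SMCs, 16726 and 27314 in fibroblasts, 9967 and 18113 in macrophages, and 10383 and 19623 in ECs. Its part in the *Isg15* ratios was not tested.

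In fibroblasts the partners of *Isg15* in the pathway did not share this size. *Ifit1* was there at 66.6 CPM in mgR and 64.8 in mgR-LOS, a ratio of 0.974 (0.912-1.04), and *Ifit3* at 68.7 and 68.5 CPM, a ratio of 0.997 (0.935-1.06). In lymphatic ECs, by contrast, *Irf7* had a ratio of 4.30 (1.83-10.9), from 9 UMIs in mgR and 18 in mgR-LOS. *Ifit1* had one of 2.59 (1.60-4.21) in those cells, and *Ifit3* stayed under the level minimum. Among the other pathway genes of fibroblasts, the highest ratios were those of *Rsad2* (viperin, an antiviral enzyme) at 1.69 (1.43-1.99), *Socs1*, an inhibitor of Jak signaling, at 1.67 (1.49-1.88), and *Ifit2* at 1.55 (1.41-1.71). The *Isg15* level was also read in barcodes with and without a UMI of other members. In fibroblast barcodes without a UMI of *Ifit1*, *Ifit3* or *Irf7* it was at 9.05 CPM in mgR and 32.2 in mgR-LOS, and in those with one at 64.5 and 305 CPM. In SMCs the same levels were 1.65 and 8.12 CPM without and 29.2 and 99.1 CPM with. Macrophages gave 11.5 and 42.9 without and 78.7 and 309 with, and ECs 13.1 and 70.8 without and 68.4 and 369 with. The mgR-LOS barcodes are shallower, with a median of 8113.0 UMIs in fibroblasts against 12276 in mgR, so that the class without a UMI can hold more barcodes in which these genes were missed.

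**Figure D4:**
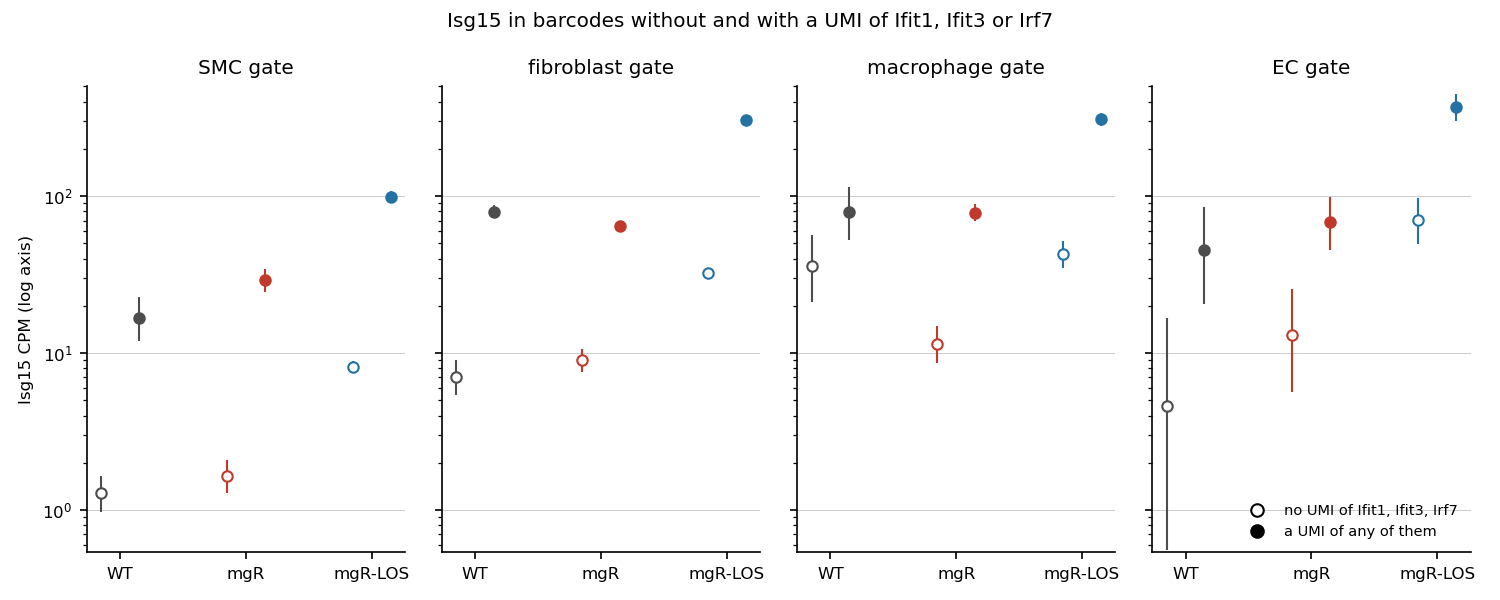
*Isg15* CPM (log axis) in barcodes of each main gate without (open points) and with (filled points) a UMI of *Ifit1*, *Ifit3* or *Irf7*, by library, with 95% intervals of counting error. In fibroblasts mgR-LOS lies above mgR in both classes, at 32.2 against 9.05 CPM without such a UMI and at 305 against 64.5 CPM with one.

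The WT and mgR matrices were made with CellRanger 5.0.1 and that of mgR-LOS with 6.0.1, by the headers of the files. The treatment, the pool of mice and the version of the counting software cannot be told apart in this comparison.

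*Ifi27l2a* lay above 1 in SMCs and below it in macrophages. In SMCs it was at 30.1 CPM in mgR and 54.5 in mgR-LOS, a ratio of 1.81 (1.70-1.92) that was 1.26 with at most 5% mitochondrial UMIs, under the fold, and in the SMC barcodes without a UMI of the 5 other panels at 26.2 and 59.5 CPM. In macrophages it was at 3485 and 2315 CPM, a ratio of 0.664 (0.648-0.680), which ran from 0.640 to 0.717 over the 8 settings planned and so lay on both sides of the fold. Fibroblasts were between, with a ratio of 0.794 (0.780-0.808). *Bst2* was lower in fibroblasts, at 270 CPM in mgR and 175 in mgR-LOS, a ratio of 0.649 (0.626-0.673) that brought it to about the WT level of 189 CPM. Its ratio in ECs was 0.696 (0.607-0.798) and in macrophages 0.857. In macrophages *Ifit1* and *Ifit3* were higher, with ratios of 1.58 (1.29-1.92) and 1.55 (1.28-1.86). Over the planned settings these ran from 1.41 to 2.10 and from 1.36 to 1.74, so that both also lay on both sides of the fold. *Ifit1* was higher in resident-type macrophages, with a ratio of 2.37 (1.87-2.99), and lower in the rest, with 0.480 (0.288-0.765). For the scarce *Ifit1* and *Ifit3* of SMCs the direction depended on the barcodes: the ratios were 0.743 and 0.606 over the whole gate, and 1.46 and 1.37 in barcodes without a UMI of the other panels.

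A few barcodes decided the endothelial values. In mgR-LOS ECs, 50 of the 76 *Ifit1* UMIs came from 1 barcode, as did 21 of the 34 *Ifit3* UMIs and 41 of the 136 *Isg15* UMIs from the top barcode of each gene. Without the top barcode of each library, the *Ifit1* ratio went from 1.95 (1.35-2.84) to 0.866 (0.508-1.45) and the *Ifit3* ratio from 1.04 to 0.481 (0.234-0.930). The *Isg15* ratio remained at 4.47 (2.90-7.07). Markers of other cells moved in the same gate: the fibroblast panel was at 1571, 1302 and 3019 CPM in ECs of WT, mgR and mgR-LOS, and its part was not tested. The 15 immediate early genes were also lower there, with a median ratio of 0.520, beside a ratio of 0.694 (0.472-1.01) for *Irf1*.

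The spread of these UMIs over barcodes was read next. A barcode was called a core barcode when it carried at least 3 of *Isg15*, *Ifit1*, *Ifit3* and *Irf7*. In fibroblasts, 94 of 1324 barcodes in WT (7.10%), 251 of 2395 in mgR (10.5%) and 266 of 3097 in mgR-LOS (8.59%) met this, at different depths. They held between 69.3 and 81.0% of the *Isg15*, *Ifit1* and *Ifit3* UMIs of their gate. Since the barcodes were chosen by UMIs of these genes, the shares are partly set by the choice and are descriptions. Barcodes with exactly 2 of the 4 genes, just outside, numbered 93, 262 and 265. After thinning to 1000 UMIs, 2.34, 2.92 and 3.78% of fibroblasts carried at least 2 of the 4, and the intervals of every pair of libraries overlapped.

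Core barcodes were rare in SMCs, with 7 of 3586 in WT (0.195%), 32 of 3031 in mgR (1.06%) and 52 of 7791 in mgR-LOS (0.667%). The 32 barcodes of mgR held 69.0% of the *Ifit1* UMIs and 65.2% of the *Ifit3* UMIs of all mgR SMCs, shares again partly set by the choice. In these 32 the SMC panel had a median of 405 UMIs per 10000 against 431 in the other SMCs. Their fibroblast panel was higher, at 1.04 against 0.490, with a UMI in 68.8% of barcodes against 54.5%. A UMI of the endothelial, macrophage and monocyte panels was found in 6.25, 21.9 and 3.12% of them, against 6.10, 20.2 and 2.90% of the rest. In the 52 core barcodes of mgR-LOS the SMC panel was lower, at 289 against 415. Their shares with a UMI of those 3 panels were 7.69, 17.3 and 1.92%, against 10.0, 16.7 and 1.16% of the rest. The part of other cells in the core barcodes was not tested. Thinned to 1000 UMIs, 0.0838% of WT, 0.297% of mgR and 0.295% of mgR-LOS SMCs carried at least 2 of the 4 genes, from only 3, 9 and 23 barcodes.

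Genes that were not used to call the core barcodes were also higher in them, given here as a description since all come from the same cells. In mgR SMCs, *Usp18* was at 102 CPM in core barcodes and 1.05 in the rest, *Bst2* at 486 and 43.5, and *Ifitm3* at 2205 and 365. *Irf1* was not in mgR SMCs, at 76.0 against 70.4 CPM, nor was *Fos*, at 3083 against 3686 CPM. In fibroblasts of mgR, *Irf1* was slightly higher, at 220 against 194 CPM (ratio 1.14, 1.06-1.22), while *Bst2* was at 656 against 214. Other core barcodes held more *Irf1*, at 83.4 against 30.2 CPM in mgR-LOS SMCs and 307 against 145 in WT fibroblasts. It was at 327 against 238 CPM in mgR-LOS fibroblasts and 221 against 92.9 in mgR monocytes or dendritic cells. In macrophages *Irf1* was at 148 against 189 CPM in mgR and 262 against 236 in mgR-LOS.

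**Figure D5:**
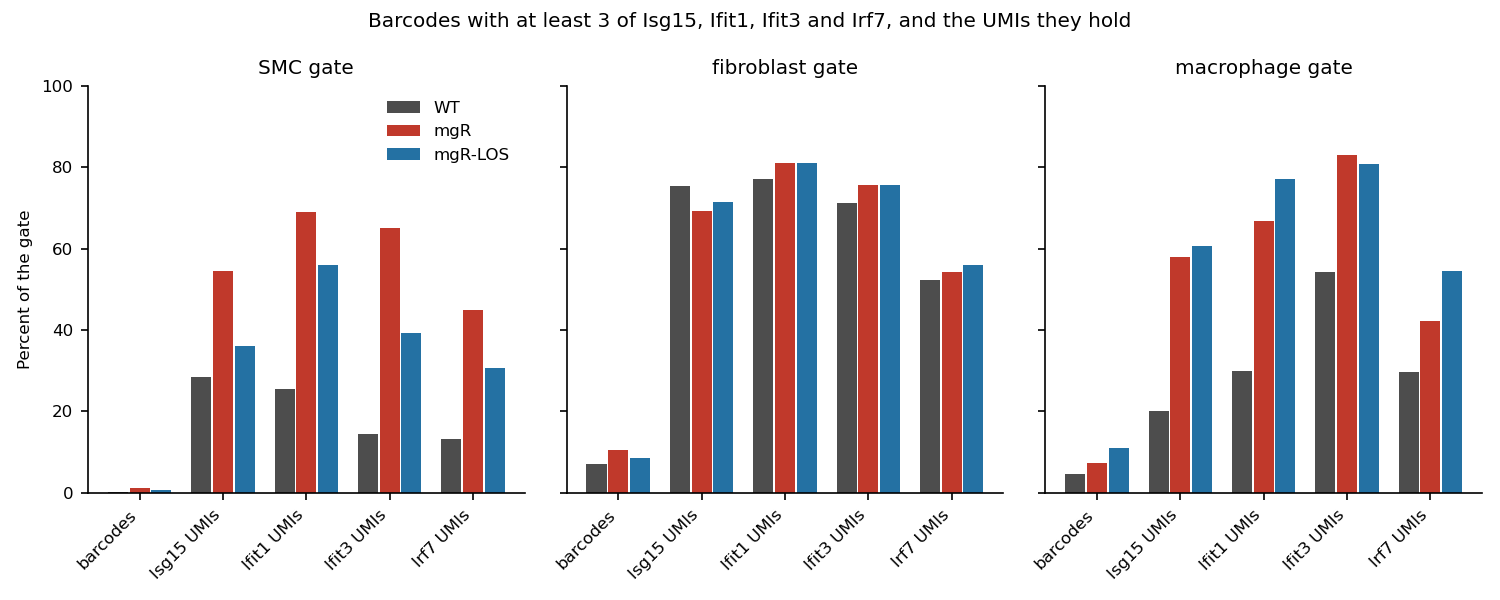
Percent of the barcodes of a gate that carry at least 3 of *Isg15*, *Ifit1*, *Ifit3* and *Irf7* (first group of bars) and percent of the UMIs of each of these genes that those barcodes hold, by library and unthinned. In mgR SMCs 1.06% of barcodes hold 69.0% of the *Ifit1* UMIs, and in mgR fibroblasts 10.5% hold 81.0%. The barcodes were chosen by UMIs of these genes, so that the shares are partly set by the choice.

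Neutrophils of mgR (43 barcodes, median 2129.0 UMIs) held 1508 CPM of *Isg15*, 2593 of *Ifit1*, 1126 of *Ifit3*, 754 of *Irf7*, 4009 of *Ifitm3* and 424 of *Irf1*, each above its level in the other gates of at least 20 barcodes. *Bst2* was at 258 CPM there, against 599 in mgR ECs. The WT and mgR-LOS gates held 2 and 12 neutrophils, too few to set beside them. Of the 43, 25 were core barcodes. Those had a median of 267 UMIs of the neutrophil panel per 10000 against 569 in the other 18, and 14.5 UMIs of the monocyte or dendritic panel against 0, so that the marker panels differed between them.

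In monocytes or dendritic cells, all 8 genes were lower past the fold in mgR-LOS than in mgR, where 15.9% of 6883 genes were lower. The gate held 231 barcodes in mgR, 69 in mgR-LOS and only 4 in WT. *Irf7* was at 330 and 33.6 CPM, *Isg15* at 254 and 67.1 CPM, and *Ifi27l2a* at 3310 and 619 CPM. *Ifit1* was at 129 CPM in mgR and had no UMI in the 69 barcodes of mgR-LOS, which allows up to 5.59 CPM, or 4.35% of barcodes. The interval of its mgR-LOS over mgR ratio had an upper limit of 0.0536. *Ifit3* was at 129 and 1.86 CPM, the latter 1 UMI, a ratio of 0.0145 (0.000365-0.0814). Core barcodes made up 71 of 231 in mgR and 0 of 69 in mgR-LOS. The genes that defined the gate differed at the same time. *Ly6c2*, a marker of classical monocytes, was at 1472 and 54.1 CPM, *Plac8* at 2250 and 201, and *Chil3* at 140 and 18.6, while *Ccr2* was at 684 and 817 and the dendritic markers *Cd209a* at 773 and 703 and *Flt3* at 49.3 and 82.0. In mgR the core barcodes had a median of 110 UMIs of that panel per 10000 against 34.3 in the rest. Fewer monocytes in the gate and a lower level per monocyte cannot be told apart.

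In T or NK cells all 8 genes were also lower past the fold, against 15.9% of 4415 genes. *Ifi27l2a* was at 1696 CPM in the 102 barcodes of mgR and 116 in the 57 of mgR-LOS, and *Isg15* at 131 and 12.4 CPM, the latter 3 UMIs, a ratio of 0.0948 (0.0191-0.289). *Irf7* was at 73.2 CPM in mgR and *Ifit3* at 49.5 CPM, and neither had a UMI in mgR-LOS. The intervals of their mgR-LOS over mgR ratios had upper limits of 0.219 and 0.332. No UMI in 57 barcodes allows up to 12.4 CPM, or 5.26% of barcodes. The makeup of the gate moved too, with *Nkg7* at 368 and 61.9 CPM, *Gzma* at 160 and 41.3 and *Cd8a* at 35.6 and 161. The part of these subtypes was not tested.

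Of the other genes of the pathway, the ligands except *Ifng* were nearly silent. Among 21 interferon genes, 2 had a UMI in WT, 4 in mgR and 4 in mgR-LOS. *Ifnb1*, interferon beta, had 1, 14 and 5 UMIs in the libraries. *Ifng*, interferon gamma, had 24 UMIs in 3 barcodes in WT, 116 in 26 barcodes in mgR and 3 in 3 barcodes in mgR-LOS. Of those UMIs 24, 31 and 3 lay in the T or NK gate, so that most of mgR lay outside it. The gate asks for 3 of *Cd3d*, *Cd3e*, *Cd3g*, *Trbc2*, *Nkg7* and *Klrb1c*. NK cells without a UMI of the T cell genes thus fall outside it.

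Over all lists of the pathway, 127 genes were read apart from the 8. The mgR over WT counts were 6 higher and 1 lower of 31 at the level in SMCs, 15 and 1 of 70 in fibroblasts, 19 and 2 of 76 in ECs and 7 and 8 of 89 in macrophages. These stand beside the shares of all genes given above, 4.47% higher and 3.58% lower in SMCs, 5.96% and 3.55% in fibroblasts, 15.0% and 8.96% in ECs and 11.0% and 5.61% in macrophages. The higher macrophage genes of the pathway were thus no more frequent than among all genes. In SMCs the highest were *Lgals3bp* at 2.52 (2.26-2.82), a secreted glycoprotein, the interferon gamma-induced GTPases *Iigp1* at 2.23 (1.97-2.52) and *Gbp2* at 1.75 (1.55-1.97), and the lowest was *Socs3*, an inhibitor of cytokine signaling, at 0.645 (0.617-0.674). In fibroblasts *Ifi203* at 3.71, *Slfn5* at 3.30 and *Ifi211* at 3.05 led, and 10 of 27 antiviral genes were higher and none lower. *Socs1* was lowest there, at 0.480 (0.423-0.545). In ECs *Ifi44* at 4.15 (1.86-10.9), *Ifi203* at 3.40 (2.04-5.97) and *Trim30a* at 3.05 (1.77-5.59) led, from 11.1, 28.5 and 25.3 CPM in WT. *Rtp4* at 0.587 (0.366-0.939) was lowest. These pathway genes were not recomputed without the top barcode.

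In macrophages of mgR, of the list induced mainly by interferon gamma, 8 of 24 genes were lower and none higher, with a median ratio of 0.760. The chemokine *Cxcl9* was at 102 CPM in WT and 25.7 in mgR, a ratio of 0.251 (0.195-0.327), *Irgm2* at 0.366 and *Iigp1* at 0.432. Of the list induced mainly by type I interferon, 5 of 37 were higher, near the 11.0% of all genes, and none lower. *Oas1g* at 2.50 (1.12-6.94), *Oas3* at 2.46 (1.22-5.77) and *Isg20* at 2.23 (1.10-5.24) led. They were at only 7.13, 9.51 and 9.51 CPM in WT macrophages.

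In mgR-LOS over mgR, the counts were 0 higher and 2 lower of 34 in SMCs, 4 and 1 of 73 in fibroblasts, 6 and 21 of 80 in ECs and 12 and 4 of 89 in macrophages. Over all genes the shares were 3.74% higher and 3.18% lower in SMCs, 3.05% and 3.22% in fibroblasts, 12.0% and 12.3% in ECs and 4.60% and 2.76% in macrophages. The lower genes of SMCs were *H2-K1* and *Ifngr2*. *H2-K1*, a class I histocompatibility antigen, was at 120 and 75.3 CPM, and *Ifngr2*, a chain of the interferon gamma receptor, at 134 and 88.8 CPM. In macrophages *Ifit2* at 1.94 (1.59-2.38), *Rsad2* at 1.89 (1.66-2.16) and *Iigp1* at 1.77 (1.40-2.23) led, and *Oas1g* at 0.442, *Cxcl9* at 0.481 and *Oas1a* at 0.551 were lowest. In ECs 13 of 27 genes induced mainly by interferon gamma were lower and none higher, with a median of 0.732. *Cxcl9* was at 48.9 CPM in mgR ECs and had no UMI in those of mgR-LOS, which allows up to 3.85 CPM, and *Socs3* at 0.293 and *Ifi203* at 0.357 followed. The highest in ECs were *Usp18* at 2.40 (1.14-5.33), *Tor3a* at 1.85 and *Ifit3b* at 1.70 (0.860-3.40), in the gate where 1 barcode held most *Ifit1* UMIs.

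The genes most like each of the 8 across 18 pools of gate and library with at least 50 barcodes were sought among 9969 genes, by Pearson's r of log2(CPM + 10). The pools share libraries and depth, and the values are descriptions. *Ifit1* was most like *Ifit3b* (r = 0.91), *Cmpk2* (0.87) and *Ifit3* (0.87), and *Ifit3* most like *Ifit1* (0.87), *Cmpk2* (0.83) and *Tor3a* (0.82). *Ifit3b* is a near copy of *Ifit3*, and *Ifi27l2b* and *Ifitm2* are genes related to *Ifi27l2a* and *Ifitm3*. How reads were divided within these pairs was not tested and is uncertain. *Isg15* was most like *Ifih1*, a sensor of viral RNA (0.86), *Parp10* (0.82) and *Usp18* (0.82). *Irf7* was most like *Dhx58* (0.91), *Trim30d* (0.91) and *Oas1a* (0.90), *Bst2* like *Xaf1* (0.96), *Slfn5* (0.94) and *Gbp5* (0.92), and *Ifi27l2a* like *Bcl3* (0.93), *Rnf213* (0.91) and *Irf9* (0.91). *Irf1* was most like *Cxcl1*, a neutrophil chemokine (0.90), *Fbxo33* (0.84) and *Oasl2* (0.83), and *Ifitm3* like *Man1b1* (0.94), *Dock4* (0.93) and *Phf11d* (0.93). By Spearman's correlation the genes most like *Ifi27l2a* were *Washc4*, *Bcl3* and *Slc31a1*, and those most like *Isg15* were *Ifih1*, *Cln3* and *Mpdu1*, so that most names changed with the measure. Among the 8, r ran from 0.45 for *Ifitm3* with *Irf7* to 0.87 for *Ifit1* with *Ifit3*.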

How the data were processed

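The measurements were 10x Genomics 3′ single-cell RNA-seq of 3 libraries, 1 each for WT, mgR and mgR-LOS. The deposited matrices hold raw UMI counts, which the authors made with CellRanger 5.0.1 for WT and mgR and 6.0.1 for mgR-LOS per the file headers, on GRCm38 with 32285 genes. The submitters' processing notes name 6.0.1 alone. The limits of the study's methods were applied: from 600 to 5000 detected genes, and no more than 10% of UMIs from mitochondrial genes. Each was gated by 13 marker panels of 5 or 6 genes, with a minimum of 2 to 4 panel genes and of 3 to 100 panel UMIs per 10000. Barcodes that met both the macrophage and the monocyte or dendritic gate were kept as macrophages. Those of the SMC and mural gates were kept as mural cells, and those of both endothelial gates as lymphatic ECs. Barcodes of other combinations of gates (126, 633 and 710) or of none (47, 307 and 207) were left out, and this alone treated doublets. The gate thresholds were set after the spread of the panels had been seen, and gates may differ from the cell types of the study. Levels carry exact Poisson, ratios exact conditional binomial and shares Clopper-Pearson intervals at 95%. A count of 0 allows up to 3 counts. UMIs remove amplification copies, and the intervals cover counting error only. Shares were thinned to 1000 UMIs per barcode, without the 0 to 6 shallower barcodes per gate and library. Gene positions are from GENCODE M21.

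The 8 genes and the other lists were chosen with earlier results of these data known. Named genes besides the 8 were the 3 highest and 3 lowest ratios of the pathway lists per gate and comparison, and the 3 most similar genes for each of the 8. Alternatives were other limits on barcodes and gates, scaling, depth, fold and level, and 2 chosen after seeing the data, without the top barcode and SMCs without other panels. The ratio script was tested on simulated data. Python 3.11.15 was used with numpy 2.4.6, pandas 2.3.3, scipy 1.17.1 and matplotlib 3.10.9.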

Additional observations from a re-analysis of the deposited data

Results flagged for a closer look

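These 5 results were picked out because a gene lay above 1 in a cell type and below 1 in another under the same comparison, with both intervals on their own side of 1 and at least 1 of them past the fold. The difference between cell types was not tested, since each group is 1 library. *Isg15* in mgR over WT was 2.02 in ECs and 0.695 in macrophages, 2.91 times as high. Thinned to 2000 UMIs the ratios were 0.631 and 0.588, both below 1. *Ifi27l2a* in mgR-LOS over mgR was 1.81 in SMCs and 0.664 in macrophages, 2.73 times as high, and 1.26 and 0.674 with at most 5% mitochondrial UMIs, neither past the fold. *Ifit1* in that comparison was 1.95 in ECs and 0.743 in SMCs, 2.63 times as high, and most endothelial UMIs came from 1 barcode. *Ifit3* was 1.55 in macrophages and 0.606 in SMCs, 2.55 times as high. Both *Ifit1* and *Ifit3* were under the level minimum in SMCs. In SMC barcodes without a UMI of the other panels their ratios were 1.46 and 1.37, above 1. *Irf1* was 1.29 in macrophages and 0.434 in SMCs, 2.98 times as high.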

How the results depend on the processing

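No paired analysis was possible because each group is 1 library. Counts of the 8 genes past the fold were recomputed under 12 settings, and 143 of 192 stayed within 1.5 times. The cause of the moves was not tested. With at least 200 genes and no upper limit, EC counts in mgR-LOS over mgR were 1 higher and 4 lower. With at most 5% mitochondrial UMIs, mgR over WT gave 4 higher in SMCs, 1 higher in fibroblasts and 1 lower in macrophages, and mgR-LOS over mgR gave 2 lower in SMCs, 0 lower in macrophages, and 1 higher and 5 lower in ECs. With barcodes of several gates kept, mgR-LOS over mgR gave 2 higher in SMCs and 1 higher in macrophages. With 1 more panel gene, mgR over WT gave 1 higher in fibroblasts, and mgR-LOS over mgR 0 lower in macrophages and in ECs. Without mitochondrial, ribosomal and globin genes, mgR-LOS over mgR gave 2 higher and 2 lower in SMCs. With median-of-ratios scaling, mgR over WT gave 1 lower in macrophages. With the mean of per-barcode CPM, mgR over WT gave 1 higher in fibroblasts, and mgR-LOS over mgR 0 lower in fibroblasts, 1 higher and 0 lower in macrophages, and 1 higher and 3 lower in ECs. Thinned to 2000 UMIs, mgR over WT gave 1 higher in fibroblasts, 1 lower in macrophages, and 1 higher and 1 lower in ECs, and mgR-LOS over mgR 0 lower in macrophages and 1 higher in ECs. With a fold of 2, mgR over WT gave 1 higher in SMCs and 0 in fibroblasts, and mgR-LOS over mgR 0 higher in SMCs, 0 lower in fibroblasts, 1 higher and 0 lower in macrophages, and 1 higher and 0 lower in ECs. With a minimum of 50 CPM, mgR over WT gave 1 higher in SMCs, 1 in fibroblasts and 0 in ECs, and mgR-LOS over mgR 0 higher in SMCs, 1 higher in macrophages and 0 lower in ECs. With no minimum, mgR over WT gave 6 higher in SMCs, and mgR-LOS over mgR 2 higher and 2 lower. Without the top barcode, mgR-LOS over mgR gave 1 higher in macrophages, and 1 higher and 2 lower in ECs.

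Of 512 single ratios under the 8 planned settings, 424 stayed in their interval, 86 moved and 2 of those past the fold turned: *Ifit1* in ECs of mgR-LOS over mgR went to 0.422 with at most 5% mitochondrial UMIs, and *Isg15* in ECs of mgR over WT to 0.631 when thinned to 2000 UMIs. *Ifit1* in ECs also went to 0.866 without the top barcode, and in macrophages without resident-type markers to 0.480. *Irf1* in SMCs ran from 3.50 to 6.60 in mgR over WT and from 0.389 to 0.469 in mgR-LOS over mgR. *Isg15* in mgR-LOS over mgR ran from 2.88 to 4.05 in SMCs, 3.28 to 4.17 in fibroblasts, 3.47 to 4.47 in macrophages and 3.00 to 14.6 in ECs.

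The endothelial gate, with 83 to 133 barcodes, and the 88 WT macrophages limit what can be read. Genes under 10 CPM in SMCs rest on few UMIs. The genes most similar to each of the 8 changed with Spearman's correlation, where *Ifit1* and *Irf7* kept 2 and 3 of their 3 genes and the other 6 kept 1 each.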
